A study of Mus musculus with 18 samples.

Results

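Midkine (Mdk) and pleiotrophin (Ptn), the 2 secreted growth factors of the midkine family, were followed with 4 of their receptors, Ptprz1, Alk, Sdc3 and Lrp1, in frontal cortex of newborn mice. These 6 genes were chosen by name, with earlier results of these data known, from the 54532 genes of the count table, so their levels and differences are a description and support nothing by themselves. The study profiled RNA of 3 frontal regions, labelled orbital, medial and dorsal, dissected from brains at postnatal day 0, in control mice and in mice labelled as double mutants of RXRg and RARb. These are genes for nuclear receptors of retinoids, Rxrg and Rarb. The 6 groups of 3 libraries each are control orbital, control medial, control dorsal and the same 3 regions of the double mutant, called dKO here, 18 libraries in all. The labels state neither the alleles, nor whether the deletion is restricted to a cell type, nor what the controls carry, nor which libraries came from 1 animal. The series text lists a motor region where the labels say dorsal.

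Midkine and pleiotrophin are small heparin-binding proteins released by progenitors, glia and neurons of the developing brain, and midkine was first found as a gene induced by retinoic acid. Both bind the chondroitin sulfate chains of Ptprz1, a receptor-type tyrosine phosphatase of radial glia and oligodendrocyte precursors, and the heparan sulfate chains of syndecan-3 (Sdc3), a proteoglycan of axons. Binding of pleiotrophin is known to reduce the phosphatase activity of Ptprz1. Alk is a receptor tyrosine kinase, and Lrp1 is a large endocytic receptor of the LDL receptor family that also binds midkine.

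Because the mutants are labelled for retinoid receptor genes, the sequence before the start of each gene was searched, on either strand, for the 6-base half-sites that these receptors are known to bind. The consensus is AGGTCA. One variant searched was AGTTCA. The other variant searched was GGGTCA. A pair was counted where 2 half-sites lay in the same direction 1, 2 or 5 bases apart. RefSeq promoters on GRCm38.p6 were matched for 5 of the 6 members, Ptn, Ptprz1, Alk, Sdc3 and Lrp1. Only the window of Alk held a half-site within the 250 bases before its start, 1 match of AGTTCA on the strand opposite to the gene, 90 bases before the start, and no window held a pair. Of 32851 promoters, 32.9% held any half-site in the same window, 11.8% held AGTTCA and 0.292% held a pair at these spacings. A match describes letters and not a site in use, and a window without one says only that these letters are not there. The window of Alk lies inside the gene as counted here, so only the 30 bases around its match are shown, on the minus strand at chr17:72604386-72604415, with the half-site in capitals as it reads on the gene's strand. The stretches before Ptn, the most abundant member per length (minus strand, chr6:36810221-36810429), and before Ptprz1, the receptor whose level varied most over the libraries after Alk (plus strand, chr6:22875252-22875501), are shown in full. They hold no capitals because they hold no half-site.
Alk: ggtgcttgggagTGAACTccgaggaaccaa
Ptn: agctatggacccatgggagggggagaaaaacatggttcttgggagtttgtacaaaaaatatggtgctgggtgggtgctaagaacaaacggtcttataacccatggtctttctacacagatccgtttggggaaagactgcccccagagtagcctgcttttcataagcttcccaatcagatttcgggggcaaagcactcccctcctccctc
Ptprz1: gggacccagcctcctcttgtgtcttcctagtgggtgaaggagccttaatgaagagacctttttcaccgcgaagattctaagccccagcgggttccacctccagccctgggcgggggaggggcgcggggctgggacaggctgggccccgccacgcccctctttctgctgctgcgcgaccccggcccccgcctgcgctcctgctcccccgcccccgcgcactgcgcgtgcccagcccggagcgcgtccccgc

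The libraries held between 28957325 and 93093398 counted fragments, and set A, the first of 3 sets of 6 libraries (A, B and C, replicates 1, 2 and 3), was the deepest. The sets join same-numbered replicates of the 2 genotypes, which no label pairs. Titles of set A start with the prefix RAR in both genotypes, and those of sets B and C with RXR. Traits of set A and of that prefix therefore cannot be told apart. Rarb ranged from 3.67 to 12.98 CPM (counts scaled to library size, with TMM factors) in controls and from 1.19 to 4.47 in dKO, and Rxrg from 1.76 to 31.6 and from 0.377 to 2.67. Within a region, dKO lay below control without overlap in 5 of 6 comparisons, Rarb in all 3 regions and Rxrg in medial and dorsal cortex, and Rxrg overlapped in orbital cortex. These totals cannot show which exons were deleted. Xist and Ddx3y marked all controls and the dKO of set B as male and the dKO of sets A and C as female, so sex and genotype can be told apart only in set B. The libraries also differed in how well long genes were represented. A long-gene index, the median log2 deviation of the 1273 genes with at least 10000 counted bases, which include Ptprz1 and Lrp1, ran from -0.69 in control orbital replicate 3 to 0.35 in control medial replicate 2. All 8 markers of cortical projection neurons were found in each library, Neurod6 at 867 to 1923 CPM and Tbr1 at 164 to 379.9 CPM, so the defining markers of the labelled tissue were present. In these bulk samples fewer cells of a type and less RNA per cell cannot be told apart.

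All 6 members passed the filter on low counts, and the lowest single count was 61, for Alk. The counts ignore strand, and Sdc3 shares 48 and 415 of its counted bases with the antisense genes Gm12970 and Gm26716, which reached at most 0.0319 and 0.0 CPM. Compared per kilobase of counted exon, on the mean over the 18 libraries, Ptn was the most abundant at 198 CPM per kilobase, above 99.2% of the 18730 genes tested. Sdc3 followed with 137 CPM per kilobase, above 98.5% of genes, and Mdk had 27.2, above 88.5%. Ptprz1 reached 18.8 CPM per kilobase, Lrp1 6.52 and Alk 0.628, which is above only 28.04% of genes. Thus the ligand Ptn and the co-receptor Sdc3 stood among the most abundant transcripts of the tissue, and the kinase Alk among the least abundant that were tested. Sdc3 varied least over the libraries, 1.961-fold from the lowest to the highest CPM, and Ptn 2.61-fold. Lrp1 varied 3.63-fold, Mdk 3.91-fold, Ptprz1 5.60-fold and Alk 5.997-fold.

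**Figure D1:**
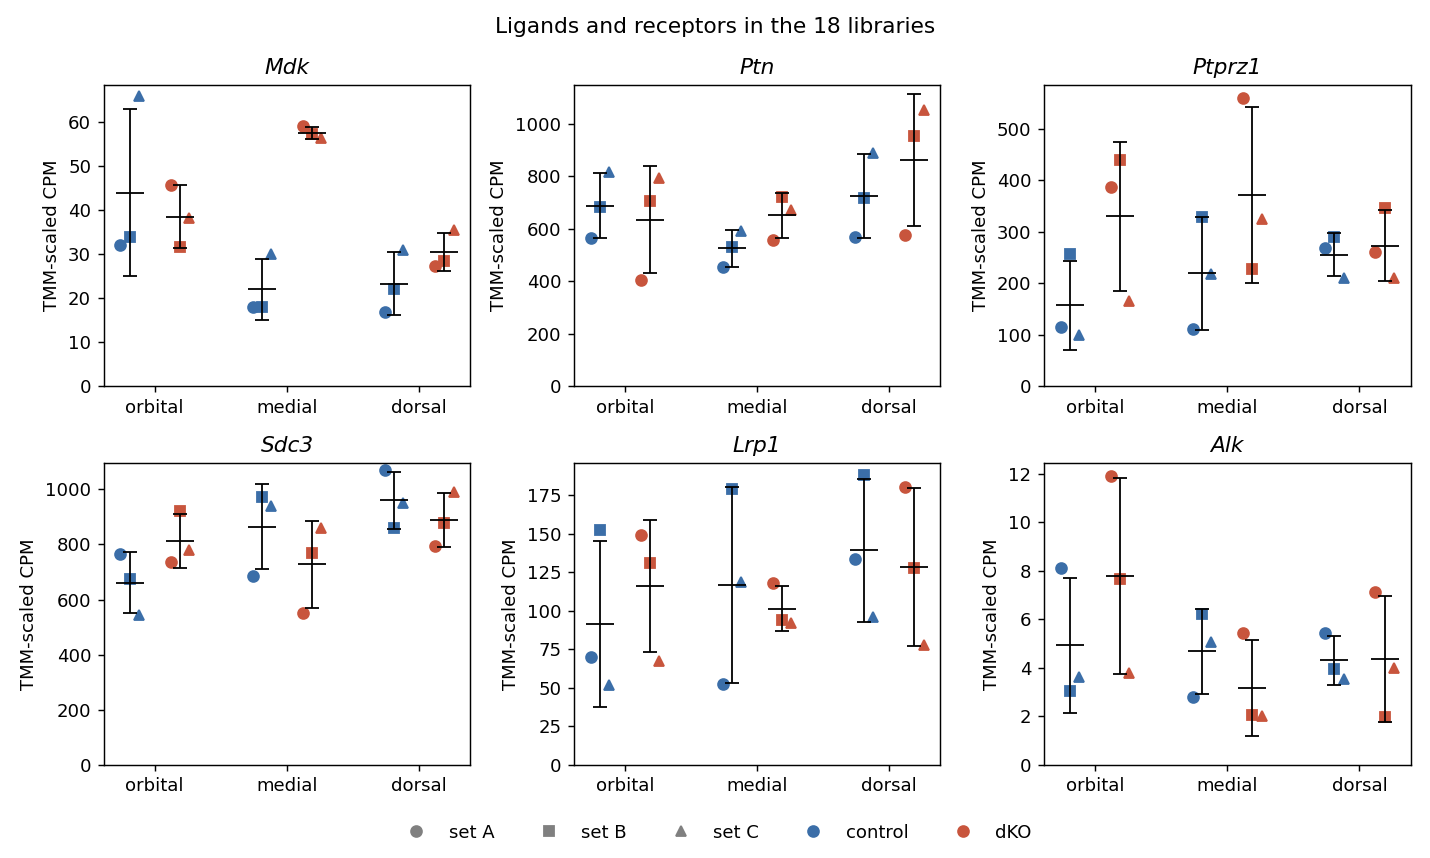
TMM-scaled CPM of the 2 ligands and 4 receptors in each of the 18 libraries, by region on the x axis, with symbols for the sets and colours for the genotypes; black bars give the group mean and SD. Mdk in medial cortex is the one panel and region where the dKO and control points lie apart, at 56.4 to 59.1 against 17.99 to 30.1 CPM.

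Midkine was higher in medial cortex of the double mutants than in any control medial library. Its gene (ENSMUSG00000027239) lies on chromosome 2 from 91929805 to 91932297, minus strand, on GRCm38. In control medial cortex Mdk was at 17.99, 18.02 and 30.1 CPM (replicates 1, 2 and 3), and in dKO medial cortex at 59.1, 57.3 and 56.4 CPM. The lowest dKO library lay above the highest control library, and the 3 dKO libraries differed from each other far less than the controls did. The group means were 22.0 ± 6.98 (SD, n = 3) and 57.6 ± 1.34 (SD, n = 3) CPM. The fitted log2 difference, dKO minus control, was 1.40 (SE 0.280), a 2.65-fold higher level. Within the sets the log2 difference was 1.71 in set A, 1.67 in set B, where both genotypes were male, and 0.91 in set C.

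In the other regions the genotypes overlapped. Mdk in control orbital cortex was at 32.1, 34.0 and 65.9 CPM and in dKO orbital cortex at 45.7, 31.5 and 38.2 CPM, with a log2 difference of -0.15 (SE 0.275). In control dorsal cortex it was at 16.8, 22.0 and 31.1 CPM and in dKO dorsal cortex at 27.4, 28.6 and 35.5 CPM, with a log2 difference of 0.40 (SE 0.276). The high orbital value belongs to control replicate 3, the library with the lowest long-gene index. Over the 9 pairs of set and region, dKO exceeded control in 7 pairs, as it did for Ptn and Ptprz1. The libraries of a set and genotype deviated together, so these pairs are not independent. The share of all genes with as many pairs was not computed. The order of the mean levels was dKO medial, control orbital, dKO orbital, dKO dorsal, control dorsal and control medial, and every neighbouring pair of groups in that order overlapped.

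Across the whole table, 17.5% of the 18730 genes had non-overlapping genotypes in medial cortex, 13.9% in orbital and 9.64% in dorsal cortex. Of the 6 members, 1, Mdk in medial cortex, did so in 1 region. Genes with an adjusted p below 0.05 (edgeR's quasi-likelihood test, Benjamini-Hochberg adjustment over all genes) were 2.08% of those tested in medial cortex, 0.0374% in orbital cortex, 0.0214% in dorsal cortex and 0.0249% with the 3 regions of a set summed. Mdk in medial cortex was the 1 member past that threshold in these 4 comparisons; since Mdk was chosen with this result known, the count describes its place and is no further evidence. The call was lost with sex as a covariate (log2 difference 1.17) and in a fit of the medial libraries alone (1.41). It was also lost without replicate 1 of the control (1.33) or of the dKO (1.28), and without replicate 2 of the control (1.25) or of the dKO (1.45), the direction being kept in each.

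The pattern of Mdk over regions also differed between the genotypes. In controls the medial level was below the orbital level in each set, with log2 differences of -0.83, -0.91 and -1.13 (sets A, B and C). In dKO the medial level was above the orbital level in each set, by 0.37, 0.86 and 0.56. The dKO effect in medial cortex exceeded that in orbital cortex by 1.55 (SE 0.207) on the log2 scale, in a fit that compares regions within a set and genotype. The effect in medial cortex exceeded that in dorsal cortex 2.003-fold (SE 0.207 on the log2 scale). For the first of these differences 1.47% of all genes passed the threshold and Mdk was among them; for the second (difference of the dKO effect, medial minus dorsal) 0.0% passed, with 969 genes at an unadjusted p under 0.05 and 61 genes past the adjusted threshold in DESeq2. The first was no longer past the threshold with the long-gene index as a covariate (1.27) or with region compared between rather than within sets (1.56). The latter setting, named so below as well, fits the same libraries without the block for set and genotype. The call was also lost without the dKO of replicate 1 (1.66), the dKO of replicate 2 (1.40) or the control of replicate 3 (1.45). For the same difference, 2 of 8 microglia markers passed the threshold as higher, with all 8 positive and a median of 1.06. Of 8 cell cycle markers 2 passed as higher, with all 8 positive and a median of 0.88. Of 12 markers of radial glia and intermediate progenitors 2 passed as higher, with 11 positive and a median of 0.92. Of 8 projection neuron markers 1 passed as lower, with all 8 negative and a median of -0.67. The part of these markers in the difference was not tested.

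**Figure D2:**
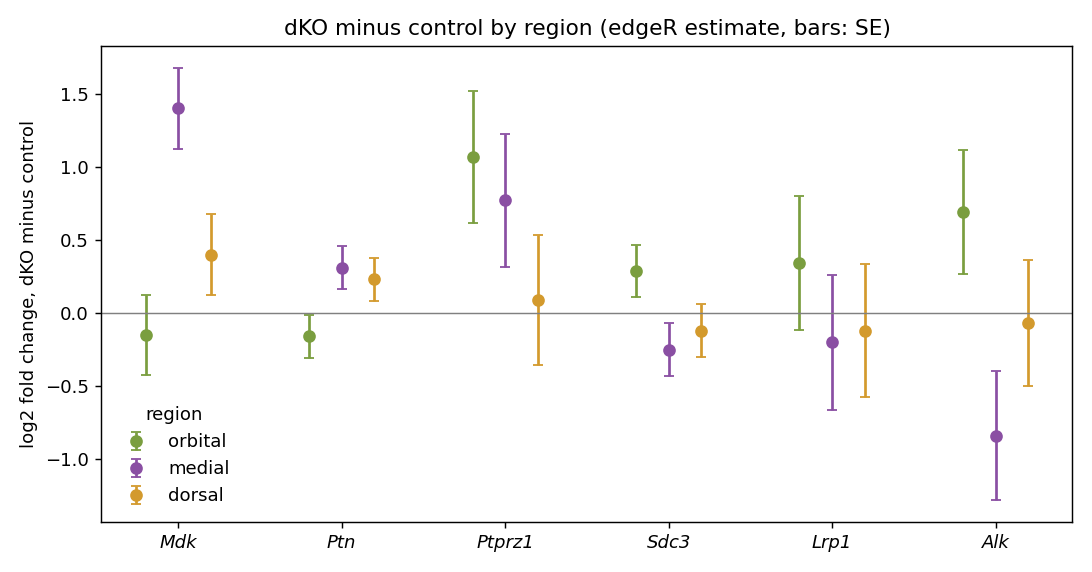
Log2 fold change, dKO minus control, of each member in each region as fitted by edgeR (points) with its standard error (bars); the y axis is a log2 scale and the grey line is 0. Mdk in medial cortex stands at 1.40, while the receptors Ptprz1, Alk and Lrp1 have standard errors above 0.4 in each region.

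Pleiotrophin passed the threshold in no comparison of regions or genotypes fitted with edgeR as above. Its gene (ENSMUSG00000029838) lies on chromosome 6 from 36714929 to 36810220, minus strand. In control medial cortex Ptn was at 453, 529.9 and 592 CPM, and in dKO medial cortex at 558, 722 and 672 CPM, with a log2 difference of 0.31 (SE 0.149). In control orbital cortex it was at 566, 683 and 816 CPM, and in dKO orbital cortex at 404, 705 and 792 CPM. In control dorsal cortex it was at 567, 717 and 889.9 CPM, and in dKO dorsal cortex at 577, 953 and 1052 CPM. The genotypes overlapped in all 3 regions, and the replicates of set A were the lowest of their group in each of the 6 groups. In controls, medial cortex was below dorsal cortex in each set, with log2 differences of -0.33, -0.44 and -0.59, and the fitted difference was -0.45 (SE 0.115). In dKO, the differences between medial and dorsal cortex were -0.05, -0.40 and -0.65 in the 3 sets, with a fitted value of -0.36 (SE 0.115). Neither value passed the threshold. In dKO, orbital minus dorsal cortex gave -0.52, -0.44 and -0.41 in sets A, B and C, with a fitted value of -0.45 (SE 0.115). In controls, medial minus orbital cortex gave -0.32, -0.37 and -0.46, with a fitted value of -0.38 (SE 0.114). These did not pass either. Each of these regional differences of Ptn passed in 2 of 8 alternative fits. The order of the mean levels was dKO dorsal, control dorsal, control orbital, dKO medial, dKO orbital and control medial, with every neighbouring pair overlapping.

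Ptprz1, the phosphatase that binds both ligands, had higher mean levels in dKO than in controls in medial and orbital cortex, with a spread that made the groups overlap. Its gene (ENSMUSG00000068748) lies on chromosome 6 from 22875502 to 23052916, plus strand. In control orbital cortex Ptprz1 was at 116, 256 and 100.004 CPM, and in dKO orbital cortex at 386, 438 and 166 CPM. In control medial cortex it was at 111, 329 and 218 CPM, and in dKO medial cortex at 560.02, 228 and 325 CPM. In control dorsal cortex it was at 269, 289 and 209 CPM, and in dKO dorsal cortex at 261, 346 and 211 CPM. The low controls were control orbital replicates 1 and 3 and control medial replicate 1. The log2 differences, dKO minus control, were 1.07 (SE 0.452) in orbital, 0.77 (SE 0.457) in medial and 0.09 (SE 0.445) in dorsal cortex, and 0.64 (SE 0.289) with the regions summed. Single libraries moved these values. The orbital value was 1.67 without control replicate 2, and the medial value was 0.28 without dKO replicate 1, 0.35 without control replicate 1 and 1.17 without control replicate 2. The dorsal value was -0.12 without dKO replicate 2 and -0.04 without control replicate 3. The summed value was 0.29 without set A of either genotype and 0.98 without set B of the controls. Within the sets the orbital pairs gave 1.74, 0.78 and 0.73 (A, B and C) and the medial pairs 2.34, -0.53 and 0.58. Over all 9 pairs, which are not independent, dKO exceeded control in 7. Group means ran from dKO medial, dKO orbital and dKO dorsal down to control dorsal, control medial and control orbital, each overlapping its neighbour.

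The level of Ptprz1 moved with the long-gene index (Pearson's r 0.74 over the 18 libraries, which differed in depth). With that index as a covariate, chosen after seeing the data, the log2 difference became 0.41 (SE 0.292) in orbital cortex and 1.09 (SE 0.263) in medial cortex, where it passed the threshold. In set B, where both genotypes were male, the differences were 0.78, -0.53 and 0.26 in orbital, medial and dorsal cortex. With sex as a covariate they were 1.17 (SE 0.517), 0.89 (SE 0.562) and 0.20 (SE 0.534).

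Lrp1, the endocytic receptor, showed no steady difference between genotypes. Its gene (ENSMUSG00000040249) lies on chromosome 10 from 127538161 to 127621148, minus strand. In control orbital cortex Lrp1 was at 69.9, 152 and 51.8 CPM, and in dKO orbital cortex at 149, 131 and 67.6 CPM. In control medial cortex it was at 52.2, 179 and 118 CPM, and in dKO medial cortex at 118, 93.6 and 92.1 CPM. In control dorsal cortex it was at 134, 188 and 96.0 CPM, and in dKO dorsal cortex at 180.2, 128 and 77.5 CPM. All regions overlapped, set B controls were the highest of each control group, and dKO exceeded control in 4 of 9 pairs. The log2 differences were 0.34 (SE 0.460) in orbital, -0.20 (SE 0.462) in medial and -0.12 (SE 0.458) in dorsal cortex. Lrp1 is the member with the longest counted exons, 17.7 kilobases, and its level followed the long-gene index with an r of 0.89 over the 18 libraries. With the index as a covariate the values were -0.33 (SE 0.231), 0.19 (SE 0.210) and 0.05 (SE 0.206), which turns the sign in each region. The order of the means was control dorsal, dKO dorsal, control medial, dKO orbital, dKO medial and control orbital, every neighbour overlapping.

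**Figure D3:**
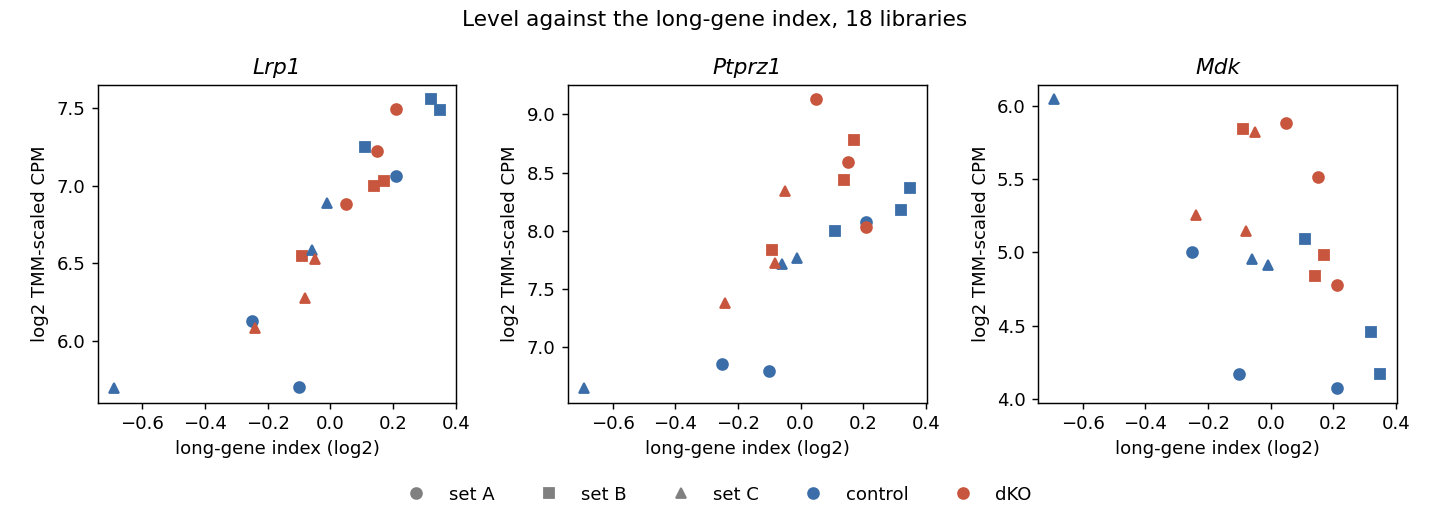
Log2 TMM-scaled CPM of Lrp1, Ptprz1 and Mdk (y axes) against the long-gene index (x axis, log2) in the 18 libraries; symbols mark sets and colours genotypes. Lrp1 rises along the index (r 0.89), Ptprz1 does so with more spread (r 0.74), and Mdk falls (r -0.57) with the 3 dKO medial libraries above the others at similar index values.

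Syndecan-3 was lower in orbital than in dorsal cortex of controls. Its gene (ENSMUSG00000025743) lies on chromosome 4 from 130792537 to 130826319, plus strand. In control orbital cortex Sdc3 was at 765, 674 and 545 CPM, and in control dorsal cortex at 1069, 861 and 951 CPM. The difference was -0.48, -0.35 and -0.80 on the log2 scale in sets A, B and C, and the fitted value was -0.54 (SE 0.158). In dKO, orbital cortex was at 736, 923 and 781 CPM and dorsal cortex at 794, 879 and 991 CPM, with a fitted difference of -0.12 (SE 0.158). Medial cortex was at 686, 971 and 938 CPM in controls and at 552, 769 and 861 CPM in dKO. The genotypes overlapped in each region, with log2 differences of 0.29 (SE 0.179) in orbital, -0.25 (SE 0.178) in medial and -0.12 (SE 0.179) in dorsal cortex. The means fell in the order control dorsal, dKO dorsal, control medial, dKO orbital, dKO medial and control orbital, with every neighbouring pair overlapping. With the long-gene index as a covariate the orbital minus dorsal difference in controls was 0.01, and the call was also lost without set B (-0.63) or set C (-0.41) of the controls and with region compared between sets (-0.54).

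Alk was the scarcest member and the one with the widest spread. Its gene (ENSMUSG00000055471) lies on chromosome 17 from 71868972 to 72604627, minus strand. In control orbital cortex Alk was at 8.10, 3.03 and 3.63 CPM, and in dKO orbital cortex at 11.9, 7.65 and 3.80 CPM. In control medial cortex it was at 2.78, 6.23 and 5.05 CPM, and in dKO medial cortex at 5.43, 2.03 and 2.001 CPM. In control dorsal cortex it was at 5.45, 3.94 and 3.53 CPM, and in dKO dorsal cortex at 7.13, 1.98 and 4.005 CPM. Set A was the highest in each group except control medial. The log2 differences were 0.69 (SE 0.427) in orbital, -0.84 (SE 0.440) in medial and -0.07 (SE 0.429) in dorsal cortex, with all genotypes overlapping. The means ran from dKO orbital, control orbital, control medial, dKO dorsal and control dorsal to dKO medial, neighbours overlapping throughout.

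Between regions, the members past the threshold were Mdk and Sdc3 only. In controls, orbital minus dorsal, 15.8% of all genes passed and 2 of 6 members did, Mdk with 0.88 (SE 0.147) and Sdc3 with -0.54 as above. In controls, medial minus orbital, 9.02% of genes passed and 1 member did, Mdk with -0.96 (SE 0.147). In dKO, medial minus dorsal, 2.09% of genes passed and 1 member did, Mdk with 0.92 (SE 0.146). No member passed in controls for medial minus dorsal (0.491% of genes), in dKO for orbital minus dorsal (0.486%) or medial minus orbital (0.016%), or for the difference of the dKO effect between orbital and dorsal cortex (0.0%, with 2363 genes at an unadjusted p under 0.05 and 313 genes in DESeq2). The orbital groups of controls carried the highest summed level of microglia markers, 210.5 to 237 CPM against 81.8 to 159 in medial and 111 to 123 in dorsal controls. There 6 of 8 microglia, 4 of 12 progenitor and 3 of 8 cell cycle markers were higher in orbital than in dorsal controls. Here and in the rest of this paragraph only markers past the threshold are counted. Also higher were 3 of 8 meningeal fibroblast, 2 of 8 astrocyte, 2 of 8 striatal projection neuron and 1 of 5 choroid plexus markers. Lower were 1 progenitor, 4 of 8 projection neuron, 1 striatal projection neuron and 1 of 8 oligodendrocyte precursor markers. In medial minus orbital controls, where Mdk was lower, 5 microglia, 4 progenitor, 3 cell cycle, 4 meningeal fibroblast and 2 astrocyte markers were lower. So were 2 striatal projection neuron, 1 oligodendrocyte precursor and 1 choroid plexus markers, while 3 projection neuron markers were higher. In dKO medial minus dorsal cortex, where Mdk was higher, 4 progenitor, 2 cell cycle and 1 astrocyte markers were higher. Lower there were 1 projection neuron, 1 interneuron and 2 striatal projection neuron markers. The part of these markers in the regional values of Mdk was not tested. The long-gene covariate took the calls of Mdk in orbital minus dorsal (0.59) and in medial minus orbital controls (-0.72), as did comparing regions between sets (0.92 and -0.99). The call in dKO medial minus dorsal was lost without the dKO of set A (0.83) or of set B (0.87), and with regions compared between sets (0.93).

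The medial libraries in which Mdk was high also held more transcripts of dividing and progenitor cells. All 8 cell cycle markers had a positive log2 difference in medial cortex, dKO minus control, and 7 of them passed the threshold. Among the 7 were Cdk1, the mitotic kinase, with 1.37 (edgeR adjusted p = 0.0026) and Mki67, a proliferation marker, with 1.77 (edgeR adjusted p = 0.0372). The median of the 8 was 1.58 against -0.00 over all genes. Their summed level was 116, 95.0 and 71.2 CPM in control medial and 359.7, 229.8 and 263 CPM in dKO medial cortex, with no overlap. Of 12 markers of radial glia and intermediate progenitors 5 passed the threshold as higher, Pax6, Vim, Hopx, Eomes and Gas1. All 12 were positive, with a median of 0.84. Their summed level was 808, 1219 and 1129 CPM in control medial and 2087, 1607 and 1543 CPM in dKO medial cortex. Eomes, which marks intermediate progenitors, was at 0 in 2 libraries, and its highest level was 23.997 CPM.

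Of 8 astrocyte markers 2 passed the threshold as higher in dKO medial cortex, Aldoc with 1.22 and Mlc1 with 1.29, and 7 were positive. All 8 projection neuron markers were negative there, and 2 passed as lower, Syn1 with -0.78 and Syt1 with -0.89. None of the 8 microglia, 8 oligodendrocyte precursor, 8 interneuron, 8 striatal projection neuron, 8 endothelial and pericyte and 8 meningeal fibroblast markers passed the threshold there, nor any of the 5 choroid plexus markers tested. All 8 microglia markers were positive (median 0.39), and all 8 striatal projection neuron markers were negative (median -0.50). The striatal list holds Rarb, a gene of the mutant label. The other lists in this group held both signs. Choroid plexus markers summed to 1.53 to 10.3 CPM over all libraries, and Otx2 was at 0 in 4 of them. In orbital and dorsal cortex the median log2 difference of the cell cycle markers was 0.72 and 0.85, with 0 of 8 past the threshold in either, and that of Mdk was -0.15 and 0.40. The share of these markers in the level of Mdk was not tested.

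**Figure D4:**
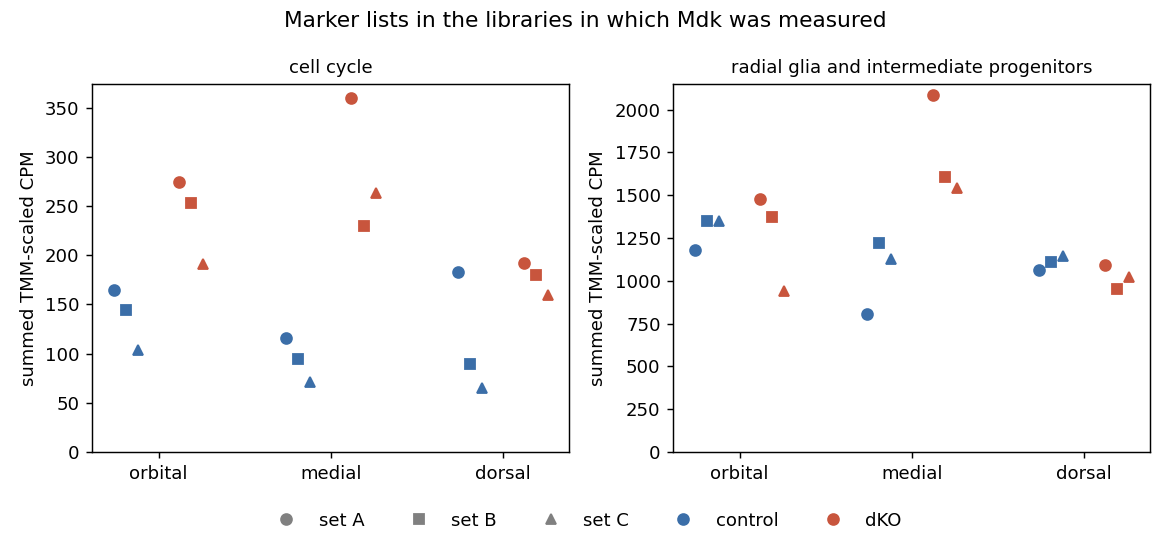
Summed TMM-scaled CPM (y axis, from 0) of 8 cell cycle markers and of 12 markers of radial glia and intermediate progenitors in each library, by region, with symbols for sets and colours for genotypes. In medial cortex the dKO libraries lie above the controls for both lists, at 229.8 to 359.7 against 71.2 to 116 CPM for the cell cycle list.

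Ranking 11074 genes whose mean reached 5 CPM, those most like Mdk over the 18 libraries (Pearson's r of log2 CPM) were Dcxr (0.930), Dbi (0.921), Hmgb2 (0.914) and Oaf (0.906). Those most like Ptn were Tmem100 (0.879), Fam3c (0.876), Pmepa1 (0.872), Smc6 (0.867) and Hey1 (0.865). For Ptprz1 they were Notch1 (0.960), Sema5a (0.936), Myo10 (0.933), Ccnj (0.906) and Notch3 (0.893). Notch1, a receptor of progenitors, has counted exons of 14232 bases, close to the 14245 of Ptprz1. Those of the others run from 4355 bases (Ccnj) to 18686 bases (Sema5a). The genes most like Lrp1 were Btbd7 (0.934), Ylpm1 (0.933), Ubr4 (0.930), Zfyve26 (0.927) and Atp2b4 (0.926), with counted exons of 9914 to 18957 bases. For Sdc3 they were Slc11a2 (0.946), Cep170b (0.925), Ube2o (0.924), Smurf1 (0.920) and Aff3 (0.915). Alk had lower values, led by A2m (0.810), Zfp653 (0.782), Adamts18 (0.752), Spon1 (0.745) and Eya3 (0.737). Among the members themselves the highest r was 0.76, between Ptprz1 and Lrp1, and the lowest were -0.58, between Mdk and Sdc3, and -0.54, between Ptn and Alk. Mdk and its receptor Ptprz1 had an r of 0.05, and Mdk and Ptn one of 0.23.

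The wider pathway was read from 63 further genes: other receptors, other ligands and partners, enzymes that build proteoglycan chains, substrates and adaptors, and close relatives of the receptors. In no region did a gene of these lists pass the threshold between dKO and control (0 of 61 tested), nor with the regions summed (0 of 62). At the lowest p with the regions summed were Lrp2, an endocytic relative of Lrp1, with a log2 difference of -2.55 (SE 0.913), and Ptprs, a phosphatase that also binds proteoglycans, with 0.37 (SE 0.134). Lrp2 was scarce, at 0.218 to 1.04 CPM in control medial cortex, at 0 in every control dorsal and dKO medial library and at most at 0.240 CPM elsewhere. Lrp2 passed the low-count filter only with the regions summed, mainly through its control medial counts. Its lower level in dKO is therefore partly built in by the filter and supports nothing. Its value was -3.95 without the dKO of set B. The difference of the dKO effect between medial and orbital cortex passed for 3 of the 61. Apoe, a ligand of Lrp1, had 1.33 (SE 0.222, edgeR adjusted p = 0.0269) and Pxn, the adhesion adaptor paxillin, 0.73 (SE 0.168, edgeR adjusted p = 0.0493). Lrp1b, the closest relative of Lrp1, had -1.70 (SE 0.279, edgeR adjusted p = 0.0233).

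Apoe was at 194 to 753 CPM in control medial and at 633 to 691 CPM in dKO medial cortex, and at 698 to 1291 CPM in control orbital and 546 to 647 CPM in dKO orbital cortex. Lrp1b was at 7.11 to 9.28 CPM in control medial and at 2.55 to 6.01 CPM in dKO medial cortex. The genotypes did not overlap, as held for 17.5% of all genes tested there. Without the control or the dKO of set B, the dKO of set A or the control of set C, Apoe ranged from 1.22 to 1.52 and Lrp1b from -1.82 to -1.65, and neither passed. Pxn passed in none of the fits that left out 1 genotype of 1 set, at 0.63 to 0.82. None of the 3 passed with the long-gene covariate (1.58 for Apoe, 0.82 for Pxn and -1.79 for Lrp1b) or with regions compared between sets (1.22, 0.71 and -1.73).

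Regional differences were wider. Orbital minus dorsal cortex of controls had 5 genes higher and 14 lower of 61, 31.1% against 15.8% of all genes, with a median of -0.17 against 0.03. The clearest was Hs6st2, which adds sulfate to heparan chains. It was at 69.1 to 109 CPM in control orbital, 78.5 to 133 in control medial and 223 to 275 in control dorsal cortex, and in dKO at 90.0 to 117, 76.0 to 117 and 195 to 289.7 CPM. Dorsal levels thus lay above the other regions in both genotypes, and the test passed in all 4 comparisons, at -1.44 (edgeR adjusted p = 8.0e-04) and -1.39 (0.0041) in controls and -1.17 (0.0070) and -1.29 (0.0022) in dKO for orbital and medial minus dorsal. Chst15, which adds sulfate to chondroitin chains, was lower in medial than in dorsal dKO cortex, at -0.79 (edgeR adjusted p = 0.0176), and in orbital than in dorsal controls, at -0.65 (edgeR adjusted p = 0.0128). The call of Hs6st2 was lost in controls for medial minus dorsal without set C (-1.26) and for orbital minus dorsal with the long-gene covariate (-1.21), and in dKO without set A for medial (-1.15) and without set A (-1.08) or B (-1.10) for orbital minus dorsal. With regions compared between sets it was lost for medial minus dorsal in controls (-1.36) and for orbital minus dorsal in dKO (-1.18). The call of Chst15 in dKO was lost without set A (-0.66) or B (-0.76) and with regions compared between sets (-0.78). In controls it was lost without set B (-0.57) or C (-0.59), with regions compared between sets (-0.65) and with the long-gene covariate (-0.34).

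Other genes higher in orbital than in dorsal controls were Sdc4, another syndecan, with 1.31 (SE 0.248), Apoe with 1.21 (SE 0.158), Shc1, an adaptor of receptor kinases, with 0.91 (SE 0.259), and Pxn with 0.50 (SE 0.118). The fifth, B4galt7, a galactosyltransferase of the linker that carries the chains, had 0.50 (SE 0.142) and was named after its value was seen. Among the lower were Xylt1, which starts proteoglycan chains, with -1.32 (SE 0.262), and L1cam, an axonal adhesion molecule, with -0.90 (SE 0.219). Cntn1, a partner of Ptprz1 on the neighbouring cell, and Lrp8, a reelin receptor, both had -0.98. With the long-gene index as a covariate the sign turned for Ndst1, which sulfates heparan chains, from -0.96 to 0.06, and for Tnc and Tnr, matrix ligands of Ptprz1 named after their values were seen, from -1.17 to 0.20 and from -0.84 to 0.18. Of the 19 genes, 1 kept its call in that fit, 3 did so with regions compared between sets, and 16, 10 and 4 did so without set A, B or C of the controls.

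**Figure D5:**
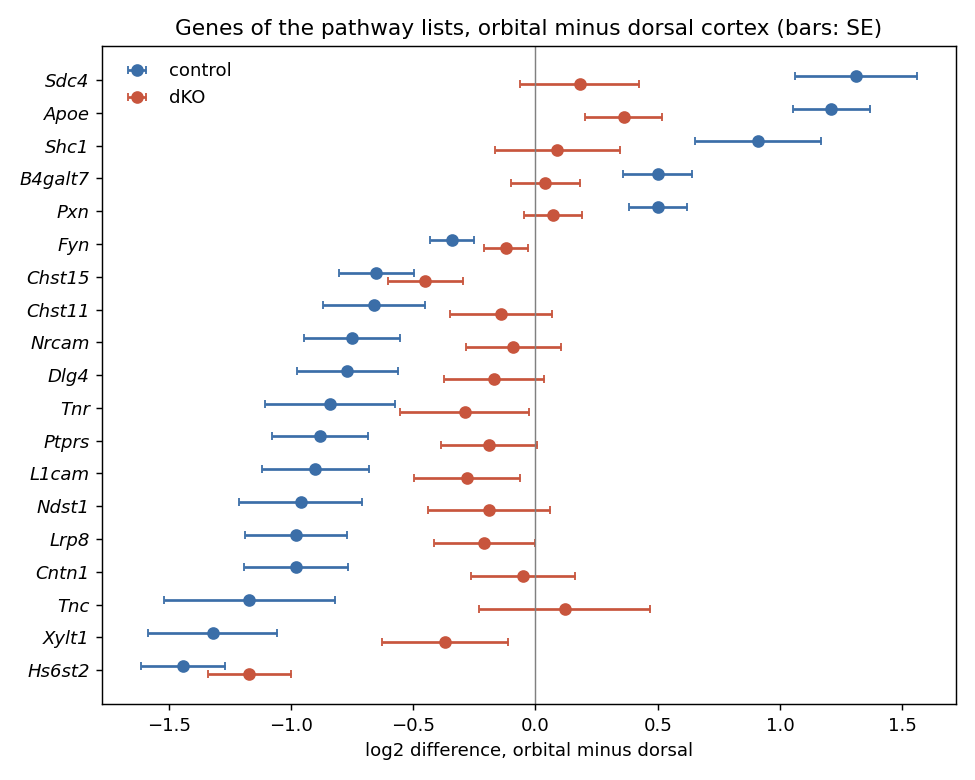
Log2 difference, orbital minus dorsal cortex, for the 19 genes of the pathway lists that passed the threshold in controls, with the control (blue) and dKO (red) estimates and their standard errors on the x axis. Hs6st2 has -1.44 in controls and -1.17 in dKO, while Sdc4 has 1.31 in controls.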

How the data were processed

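RNA of microdissected frontal cortex was made into SMART-seq v4 and Nextera XT libraries, per the labels' protocols, so fragments carry no strand. Raw counts per gene were deposited by the authors, made with STAR 2.6, per the submitters' processing notes, and featureCounts 1.6.2 on Ensembl 94 gene models (GRCm38), paired and ignoring strand, per the file headers. Of 24 sample columns in the table, 6 could not be matched to a label and were not used. Gene symbols came from a name table, and 54409 of 54532 gene IDs matched.

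Genes were kept at filterByExpr minimum counts of 10 and 15 in total. Levels are TMM-scaled CPM. edgeR 4.0.16 quasi-likelihood fits (R 4.3.3) over the 18 libraries gave log2 differences. Genotype fits had the title prefix (RAR for set A, RXR for sets B and C) as a covariate. Region comparisons had the row (a prefix and i5 index) as a block. Values of p were adjusted by Benjamini-Hochberg over all genes. Standard errors of the edgeR fits were derived as the absolute log2 difference over the square root of the F statistic. The genotype fit by region was tested on simulated counts with known changes in dKO medial cortex. Those counts held no correlation within rows, and the region and summed fits were not tested in this way. Alternatives used DESeq2 1.42.0, limma 3.58.1, RLE size factors, no low-count filter, other covariates and left-out libraries, and the long-gene covariate was added after seeing the data.

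The members, lists and tests were chosen with earlier results of these data known. Named pathway genes were those past the threshold, up to 4 per list and comparison by lowest p, or with none, the 2 with the lowest p with the regions summed. Likeness was ranked by Pearson's r of log2 CPM over genes with a mean of 5 CPM. One gene that this rule names is not reported here. Nothing in the labels ties libraries to animals, so p-values measure the spread between these samples, which may be partly technical. Libraries of a row deviated together from their group means, with r from 0.20 to 0.65 (limma estimate 0.363). The edgeR genotype fits by region took the libraries as independent. Their p-values may therefore rest on fewer independent samples than counted. In each of the 18 pairs of replicates within a group, counts differed by more than counting noise (chi-square per degree of freedom of at least 44.1).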

Additional observations from a re-analysis of the deposited data

Results flagged for a closer look

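Mdk, among the members, and 3 genes of the pathway lists had a dKO effect that differed between medial and orbital cortex in the interaction test of the edgeR fit. The difference, medial minus orbital, was 1.55 on the log2 scale for Mdk and was positive in each of the 3 sets. It was 1.33 for Apoe, a ligand of Lrp1, and 0.73 for Pxn. It was -1.7 for Lrp1b, the relative of Lrp1. Mdk was chosen with this result known. None of the 4 passed with the long-gene covariate or with regions compared between sets, and leaving out single sets also took the calls. Groups of 3 libraries are too small for a test of single outlying libraries, and none was made.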

How the results depend on the processing

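Counts of genes past the threshold moved by more than 1.5 times with several settings. Of 834 member values under the alternatives, 24 came past the threshold and 21 lost it with the sign kept. Another 20, of differences not past it, moved by more than 1 SD between replicates. Only differences past the threshold could lose it, and most of the 834 values belong to others. Mdk kept its call in 6 of 8 alternatives for orbital minus dorsal and for medial minus orbital in controls. It did so in 5 of 8 for medial minus dorsal in dKO and in 6 of 11 for the dKO effect difference, medial minus orbital. Sdc3 kept its call in 4 of 8 for orbital minus dorsal in controls. The sign was opposite to the reported one for 65 of the 834, of which 1 belonged to a difference past the threshold. With DESeq2 the counts were 81, 1118, 430 and 359 for dKO minus control in dorsal, medial, orbital and summed cortex, against 4, 389, 7 and 5. DESeq2 gave 356 and 1299 for medial minus dorsal in controls and dKO (92 and 392), 318 for orbital minus dorsal in dKO (91), and 2921 and 142 for medial minus orbital in controls and dKO (1690 and 3). It gave 61, 313 and 1700 for the difference of the dKO effect, medial minus dorsal, orbital minus dorsal and medial minus orbital (0, 0 and 275). Without the low-count filter these counts, in the same order, were 26 (dorsal), 122 (orbital) and 65 (summed), 356 and 1169, 339, 197 for medial minus orbital in dKO, and 72, 578 and 1600.

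With the long-gene index as a covariate the counts were 7, 1267 and 147 for dKO minus control in dorsal, medial and orbital cortex, 159 and 614 for medial minus dorsal in controls and dKO, 52 and 163 for orbital minus dorsal, 54 for medial minus orbital in controls, and 16 for the difference of the dKO effect, medial minus orbital. The orbital minus dorsal difference in controls turned with it for Sdc3 (0.01), Tnc (0.20), Tnr (0.18) and Ndst1 (0.06), and, among values not past the threshold, for Ptprz1 (-0.84 to 0.43) and Lrp1 (-0.71 to 0.39). Without the batch term the counts of dKO minus control were 2, 156, 3 and 3 in dorsal, medial, orbital and summed cortex. With sex as a covariate they were 9, 156 and 17 in dorsal, medial and orbital cortex, and 2 with sex in place of the title prefix in summed cortex. With the libraries of 1 region alone they were 2, 31 and 2, and with limma-voom and the row as a random effect 672 in medial and 17 in orbital cortex. The cause of these moves was not tested.

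Same-numbered libraries of the 2 genotypes deviated together in 5 of 9 pairs at a correlation over 0.1 (from -0.07 to 0.32). The correlations were 0.17 to 0.32 in set A, -0.07 to 0.03 in set B and 0.06 to 0.28 in set C. These values do not settle whether the sets pair the libraries. With a replicate block for the set, dKO minus control had 662 genes in medial and 14 in orbital cortex, and Mdk in medial cortex had 1.44. Without the replicate block of the region comparisons, 1 and 65 genes passed for medial minus dorsal in controls and dKO, 326 and 10 for orbital minus dorsal, 19 and 1 for medial minus orbital, and 0 for the difference of the dKO effect, medial minus orbital.

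Leaving out 1 library or row at a time gave 2 to 4 genes in dorsal, 67 to 362 in medial, 3 to 8 in orbital and 4 to 9 in summed cortex for dKO minus control. It gave 7 to 42 and 29 to 119 for medial minus dorsal in controls and dKO, 923 to 2146 and 4 to 21 for orbital minus dorsal, and 607 to 1219 and 0 to 1 for medial minus orbital. The difference of the dKO effect had 0 to 1 genes for medial minus dorsal, 0 to 1 for orbital minus dorsal and 0 to 1472 for medial minus orbital. Of 395 values of pathway genes under the alternatives, 110 lost the threshold and 4 had the opposite sign, of which 3 belonged to differences past the threshold. Mdk in medial cortex stayed between 1.17 and 1.65 and past the threshold in 9 of 15 alternatives (adjusted p 1.0e-04 to 0.102, edgeR, DESeq2 or limma). Without TMM scaling 35 of 36 group means moved by less than 1 SD. Depth limits Alk most, whose lowest count was 61.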
